A study of Mus musculus with 20 samples.

Results

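Regions that carried acetylation of histone H3 at lysine 27 (H3K27ac) in every treatment, and that lay deep inside genes, were described in RAW264.7 cells, a mouse macrophage-like line that can turn into osteoclasts, the cells that resorb bone. Peaks of 7 deposited lists were joined into consensus regions, defined as any stretch that at least 2 lists cover, merged where stretches touch. The constitutive intragenic distal regions were those that all 7 lists overlapped, that lay within the span of a protein-coding gene (GRCm38), and that were over 5 kb from every end of a protein-coding gene. This left 1885 of 18659 consensus regions (10.1%), which is 21.0% of the 8993 consensus regions that all 7 lists overlapped. Presence in the 7 lists chose the regions, so their number is a description and carries no test. The word distal holds for gene ends only: outside chromosome 18, 215 of 1833 regions (11.7%) spanned an annotated internal transcription start of their own host gene. Starts were known for 949 of the 1180 host genes only, so this share is a minimum.

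The 7 lists came from untreated cells (replicates 1 and 3), from cells given the cytokine RANKL at 50 ng/ml for 4 h (replicates 1 and 3), from cells given RANKL at 50 ng/ml and, over the same 4 h, 500 nM of I-BET, a BET bromodomain inhibitor (replicates 1 and 3), and from cells given I-BET alone at 500 nM for 4 h (replicate 3). All were the same line, with no genetic change named in the labels, crosslinked in 1% formaldehyde for 15 min and read as single ends of 50 bp. Replicate 2 of the untreated, RANKL, and RANKL with I-BET groups took no part in choosing the regions and gave 3 further lists that were read separately. Separate cultures are not named in the labels, and p-values therefore reflect the spread among these particular samples, possibly a technical one.

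H3K27ac is placed by the acetyltransferases p300 and CBP and marks active promoters and enhancers. Introns of long genes often hold enhancers, which may act on the host gene or on another gene nearby, and long genes often have internal promoters. BET proteins bind acetylated histones and recruit elongation factors. RANKL signals through its receptor RANK to NF-kB, MAP kinases and calcium, and these lead to NFATc1, the main transcription factor of osteoclast formation.

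Sequencing depth is unknown for these lists, which hold no read counts. The 7 lists covered 16.1 to 25.9 Mb each. The untreated and RANKL with I-BET replicate 2 lists were shorter, with 7.79 and 3.44 Mb, and the RANKL replicate 2 list stood apart with 141905 peaks over 184.6 Mb. Of 8 defining macrophage genes, 7 or 8 had a peak within 1 kb of an end in each of the 7 lists. Of 14 lymphocyte genes 1 or 2 had one, and of 14 fibroblast and osteoblast genes 0 had one. In the RANKL replicate 2 list these numbers were 8 of 8, 14 of 14 and 7 of 14. What part this plays in its overlap with the intragenic regions was not tested, and whether it comes from the same cells and kind of library as the other lists cannot be told from the files. In all lists, fewer cells with the mark and less of the mark per cell cannot be told apart.

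The regions that spanned an internal start of their host gene are the ones for which RefSeq sequence was at hand, as the 250 bases before the start (GRCm38.p6). They held 257 such starts in 204 host genes. Their windows were rich in G and C: the median was 60.4% G+C with 14 CG dinucleotides, against 51.6% and 5 for 1998 other internal starts over 5 kb from the ends of a gene, and 55.6% and 10 over 21263 starts of protein-coding genes. At least 10 CG dinucleotides stood in 158 of the 257 windows (61.5%), against 26.5% of the other internal starts and 50.1% of all starts. These windows lay within a set chosen by acetylation, and the shares are given without a test.

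Windows with at least 10 CG dinucleotides and windows with fewer are printed here as examples. They were chosen after their values were seen and do not stand for typical windows or for 2 separate sorts of start. The first 4 are rich in CG, which is in capitals. They lie before internal starts of Runx1 (chr16:92697330-92697579, minus strand), Foxp1 (chr6:99028299-99028548, minus strand), Rbpj (chr5:53590096-53590345, plus strand) and Nfatc2 (chr2:168590366-168590615, minus strand). All are read 5′ to 3′ along the gene and end at the base before the start.
Runx1: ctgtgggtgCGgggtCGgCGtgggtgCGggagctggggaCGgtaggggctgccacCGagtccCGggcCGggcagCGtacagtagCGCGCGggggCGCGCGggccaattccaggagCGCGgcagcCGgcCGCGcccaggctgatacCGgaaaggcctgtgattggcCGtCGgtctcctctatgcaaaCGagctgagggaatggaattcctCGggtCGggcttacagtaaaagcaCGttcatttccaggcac
Foxp1: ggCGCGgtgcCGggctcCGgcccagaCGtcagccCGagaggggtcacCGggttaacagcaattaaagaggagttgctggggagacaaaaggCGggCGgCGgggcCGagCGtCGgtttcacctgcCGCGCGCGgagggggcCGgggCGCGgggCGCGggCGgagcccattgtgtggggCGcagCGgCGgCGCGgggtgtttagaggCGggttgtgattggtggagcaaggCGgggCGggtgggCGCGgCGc
Rbpj: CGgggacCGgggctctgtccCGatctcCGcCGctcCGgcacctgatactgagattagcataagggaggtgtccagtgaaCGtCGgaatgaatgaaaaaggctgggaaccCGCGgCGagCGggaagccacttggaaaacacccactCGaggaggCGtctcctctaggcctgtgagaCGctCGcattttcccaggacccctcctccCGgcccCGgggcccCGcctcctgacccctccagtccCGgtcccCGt
Nfatc2: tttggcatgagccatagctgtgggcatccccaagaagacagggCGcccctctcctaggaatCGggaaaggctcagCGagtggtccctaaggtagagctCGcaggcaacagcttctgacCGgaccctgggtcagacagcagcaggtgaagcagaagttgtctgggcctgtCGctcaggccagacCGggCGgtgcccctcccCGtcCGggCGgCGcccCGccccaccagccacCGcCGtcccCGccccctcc

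These windows held 27, 34, 21 and 16 CG dinucleotides in the same order. RUNX1 is a transcription factor of blood cell development whose gene is known to have an upstream and an internal promoter, and the printed window lay 128.7 kb inside it. FOXP1 is a forkhead repressor that restrains monocyte differentiation, and its window lay 494.4 kb inside the gene. RBPJ is the DNA-binding partner of Notch and a known brake on osteoclast formation. NFATc2 is a calcineurin-dependent factor that acts early on the Nfatc1 gene.

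The next 4 windows are poor in CG, with matches to short motifs in capitals. They lie before internal starts of Cybb (chrX:9469325-9469574, minus strand), Tlr6 (chr5:64959167-64959416, minus strand), Elf1 (chr14:79515424-79515673, plus strand) and Mef2c (chr13:83573357-83573606, plus strand).
Cybb: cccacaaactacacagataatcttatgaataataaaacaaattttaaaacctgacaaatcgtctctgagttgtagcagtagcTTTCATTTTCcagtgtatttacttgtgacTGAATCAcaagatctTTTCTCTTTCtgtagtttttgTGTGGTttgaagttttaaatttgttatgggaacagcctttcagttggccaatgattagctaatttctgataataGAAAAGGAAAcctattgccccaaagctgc
Tlr6: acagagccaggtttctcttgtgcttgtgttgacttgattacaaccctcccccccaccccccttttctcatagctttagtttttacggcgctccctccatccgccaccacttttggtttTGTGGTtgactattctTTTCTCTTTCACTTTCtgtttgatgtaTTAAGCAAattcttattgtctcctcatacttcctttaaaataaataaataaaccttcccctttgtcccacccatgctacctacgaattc
Elf1: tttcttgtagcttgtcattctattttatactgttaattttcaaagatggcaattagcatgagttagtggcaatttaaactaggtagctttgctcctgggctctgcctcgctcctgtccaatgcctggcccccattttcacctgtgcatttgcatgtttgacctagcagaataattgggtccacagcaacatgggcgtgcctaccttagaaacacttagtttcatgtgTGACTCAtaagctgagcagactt
Mef2c: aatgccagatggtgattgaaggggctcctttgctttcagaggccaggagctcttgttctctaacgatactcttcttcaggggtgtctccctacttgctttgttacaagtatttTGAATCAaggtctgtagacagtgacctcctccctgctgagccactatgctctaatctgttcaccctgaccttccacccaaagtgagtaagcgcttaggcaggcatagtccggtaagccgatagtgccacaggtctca

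These windows held 1, 4, 2 and 4 CG dinucleotides. Cybb encodes the catalytic subunit of the phagocyte NADPH oxidase, and its window held 3 IRF matches, 1 AP-1 match and 1 RUNX match. Tlr6 encodes a Toll-like receptor that pairs with TLR2, and its window held 2 overlapping IRF matches, 1 RUNX match and 1 C/EBP match. Elf1 encodes an ETS factor and Mef2c a MADS-box factor, and each of their windows held 1 AP-1 match.

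Motifs were searched on both strands as AP-1 (TGANTCA), RUNX (TGTGGT), IRF (GAAA, then 2 bases of any kind, then GAAA), C/EBP (TTGCNNAA), PU.1 (GAGGAAGT), the ETS core (CCGGAAGT, which shares its last 6 letters with PU.1), NF-kB (GGGA, then any base, then TTTCC), the E-box (CACGTG) and the M-box (TCACGTGA, which contains the E-box). Of the 257 windows, 10.9% held RUNX, 8.95% C/EBP, 4.28% AP-1, 4.28% the E-box, 3.89% PU.1, 3.89% the ETS core, 2.33% IRF, 0.778% the M-box and 0.389% NF-kB. Over all protein-coding starts the shares were 12.4%, 9.09%, 6.13%, 6.63%, 2.23%, 3.79%, 2.96%, 1.01% and 0.372% in the same order. Over the other internal starts they were 15.8%, 9.71%, 8.16%, 4.95%, 1.95%, 1.45%, 2.60%, 0.3003% and 0.4004%. A match describes the letters only.

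By the rule, every base of a consensus region is covered by at least 2 of the 7 lists, and 101 of the 257 starts (39.3%) were covered by all 7. The start of Foxp1 and that of Mef2c printed above were covered by all 7 lists, those of Runx1, Rbpj, Nfatc2 and Cybb by 6, that of Elf1 by 5 and that of Tlr6 by 4. The region over the Runx1 start (chr16:92692567-92698805, 6239 bp) was covered over 3637 and 5926 bp in untreated cells, 6239 and 4022 bp after RANKL, 5923 and 6017 bp after RANKL plus I-BET, and 6221 bp after I-BET alone. The 3 groups of 2 lists overlapped, and the I-BET list lay above both untreated lists and both lists after RANKL plus I-BET. The region over the Cybb start (chrX:9465777-9470925, 5149 bp) was covered over 3324 and 1856 bp in untreated cells, 4693 and 4213 bp after RANKL, 5056 and 4692 bp after RANKL plus I-BET, and 3465 bp after I-BET alone. Both untreated values were under all the others, and none of the 3 replicate 2 lists covered the region. An internal start was also more frequent among the constitutive regions than among the 3039 intragenic distal regions outside chromosome 18 that 2 to 6 lists overlapped, of which 110 (3.62%) spanned one. The constitutive regions were wider (medians of 2219 and 961.5 bp for those with a start), and whether width alone sets this difference was not tested.

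The 1885 regions lay in 1180 host genes, which is 8.58% of the 13755 protein-coding genes long enough to hold one (those spanning more than 10 kb and the shortest region, 376 bp). A single region stood in 796 hosts (67.5%), and 384 hosts (32.5%) held at least 2, together 1095 regions (58.1%). In 38 hosts there were at least 5. The host share was higher in longer genes, from 1.10% of the genes under 20 kb to 6.26% of those of 20 to 50 kb, 13.6% of 50 to 100 kb, 18.8% of 100 to 200 kb and 21.1% of longer ones. The median span was 80.8 kb for hosts and 33.8 kb for all genes long enough, and 251.7 kb for the hosts with at least 5 regions. Over the hosts, Spearman's rho between the number of regions and the span was 0.387, as a description across genes. Over 718 pairs of neighbouring regions in the same host the median gap was 10.8 kb, with no expected gap worked out beside it.

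**Figure D1:**
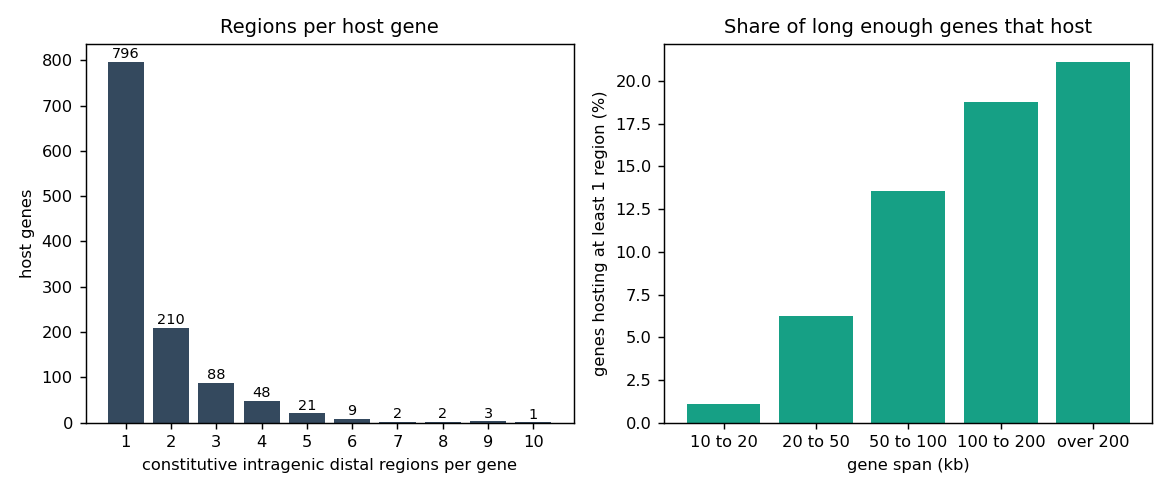
Left, number of host genes (y axis) by the number of constitutive intragenic distal regions they hold (x axis), from 796 genes with 1 region to 1 gene with 10. Right, share of protein-coding genes long enough to hold a region that hold at least 1 (y axis, %), by gene span (x axis, kb), which goes from 1.10% to 21.1%.

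The 10 hosts with the most regions were Cadm1 with 10, Tns3, Lpp and Sgms1 with 9 each, Tcf4 and Foxp1 with 8, Fyb and Baz2b with 7, and Cux1 and Gas7 with 6. Several of these encode proteins of cell contact and the cytoskeleton. Cadm1 encodes an immunoglobulin-type adhesion molecule, Tns3 a tensin and Lpp a LIM protein, both of focal adhesions. Fyb encodes an adaptor between immune receptors and actin, and Gas7 a membrane-bending F-BAR protein. Sgms1 encodes a sphingomyelin synthase, while Foxp1, Tcf4, Cux1 and Baz2b encode nuclear factors.

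Cadm1 (chr9:47530170-47862280) held 42080 bp of constitutive regions, 12.7% of its span. Its regions were covered over 32.3 and 34.6 kb in untreated cells, 32.6 and 34.0 kb after RANKL, 25.3 and 30.0 kb after RANKL plus I-BET, and 34.4 kb after I-BET alone. Both lists after RANKL plus I-BET lay under all 5 others. In Tns3 (chr11:8431652-8664758), 37908 bp or 16.3% of the span was in constitutive regions, covered over 15.4 and 31.3 kb in untreated cells, 26.5 and 35.6 kb after RANKL, 20.1 and 33.7 kb after RANKL plus I-BET, and 31.5 kb after I-BET alone. In each group of 2 the replicate 3 list covered more, by over 9 kb, and the groups overlapped. Lpp (chr16:24393350-24992578) had 14.9 and 23.0 kb covered in untreated cells, 21.9 and 24.5 kb after RANKL, 13.2 and 15.99 kb after RANKL plus I-BET, and 13.5 kb after I-BET alone. The RANKL lists lay above all lists with I-BET, as they did in the covered length of whole lists.

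Fyb (chr15:6522796-6665608) was the densest of the 10, with 4.90 regions per 100 kb of gene and 16.2% of its span in them. They were covered over 14.3 and 20.5 kb in untreated cells, 18.2 and 21.1 kb after RANKL, 19.2 and 21.1 kb after RANKL plus I-BET, and 19.7 kb after I-BET alone. Baz2b (chr2:59899363-60209913) had 8.31 and 8.57 kb covered in untreated cells, 11.3 and 12.2 kb after RANKL, 12.8 and 11.8 kb after RANKL plus I-BET, and 12.2 kb after I-BET alone. All 5 lists of treated cells lay above both untreated lists in Baz2b, while the groups overlapped in Fyb. None of the single regions in these genes passed the test across regions described further on.

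Along the gene, 40.2% of the 1544 placements with a known strand fell in the first of 3 equal stretches counted from the 5′ end, 33.2% in the middle one and 26.6% in the last. For the intragenic distal regions held by 2 to 6 lists the shares were 39.8%, 32.0% and 28.2% (2553 placements). The median distance from the 5′ end was 37.4 kb. Of 949 hosts with a known strand, 411 (43.3%) had a constitutive region within 1 kb of their own 5′ end. The share was 31% for the 10905 long enough genes with a strand, which include these hosts and are not matched for span. At the 3′ end the shares were 4.21% and 2.44%. The median distance to the nearest gene end was 23.3 kb, 1462 regions (77.6%) were over 10 kb away and 136 over 100 kb away.

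**Figure D2:**
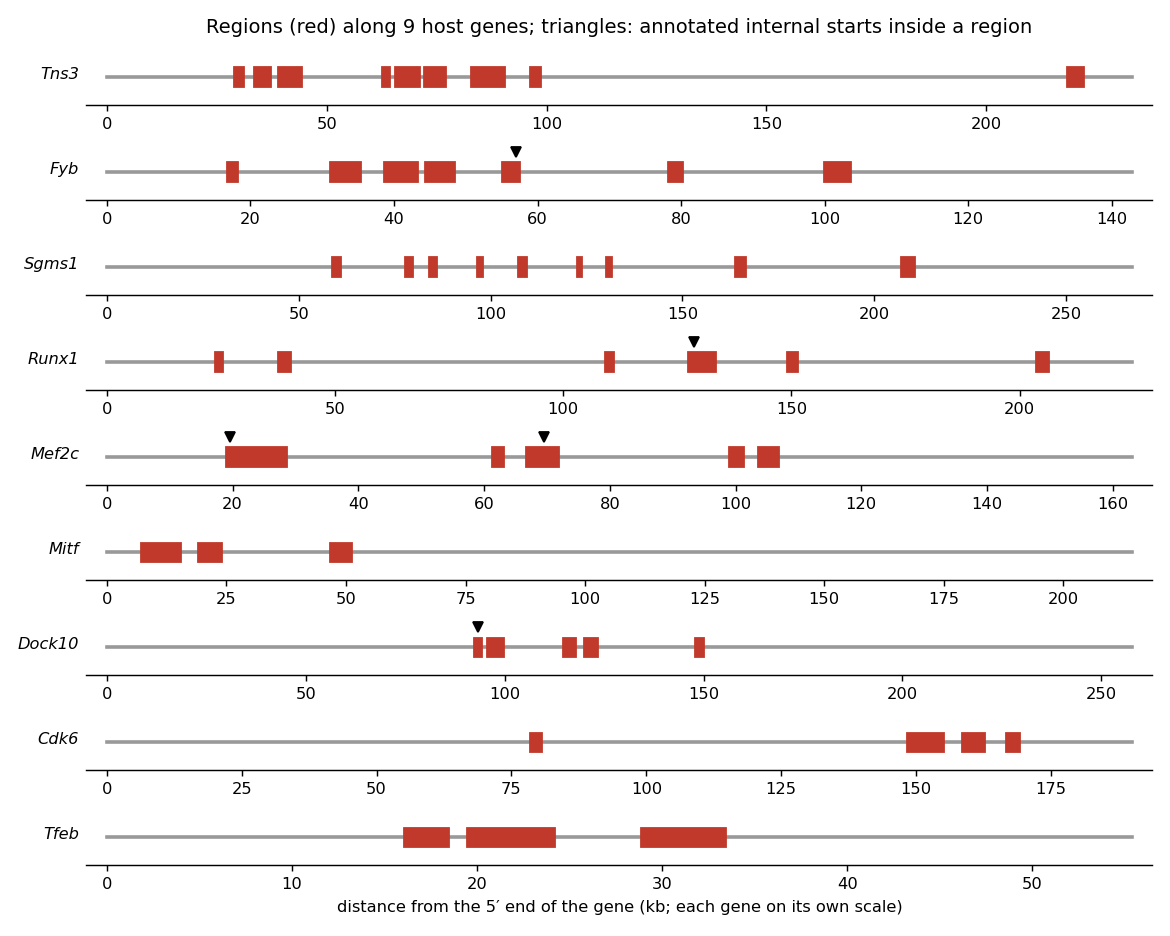
Constitutive intragenic distal regions (red boxes, to scale) along 9 host genes, drawn from the 5′ end on the left (x axis, kb, each gene on its own scale), with triangles at annotated internal starts inside a region. Tns3 has 8 of its 9 regions within 100 kb of the 5′ end, and the 5 regions of Dock10 lie together in its middle.

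The threshold of 5 kb cut through a continuous set. Just inside it lay regions of Dennd2a (5002 bp from a gene end, 1418 bp wide), Mvp (5002 bp, 1875 bp wide) and Zbtb7a (5012 bp, 5475 bp wide). Just outside lay regions of Inf2 (4983 bp, 2879 bp wide), Clic4 (4979 bp, 1336 bp wide) and Slc25a38 (4969 bp, 2845 bp wide).

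Genes of several programmes were compared with the host share of 8.58%, as counts of hosts among the members long enough to hold a region. Actin, adhesion and podosome genes, only some of which build the osteoclast's attachment ring, had 26 hosts of 41 (63.4%) with 62 regions. Among them were Ptk2b with 6 regions, which encodes the kinase PYK2 of podosomes, Dock10 and Myo1e with 5 each, and Dock4, Elmo1 and Pxn with 4. The list's median span was 88.1 kb, and over all genes the host share at 50 to 100 kb of span was 13.6%. Macrophage identity genes had 12 hosts of 23 (52.2%) with 23 regions, at a median span of 34.4 kb. They included Runx1 with 6, the ETS factors Elf1, Etv6 and Fli1 with 3 each, and 1 each in Csf1r (receptor of the growth factor M-CSF), Spi1 (the master factor PU.1), Irf8, Itgam, Itgb2, Msr1, Cx3cr1 and Zeb2.

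Lysosome and phagocytosis genes had 11 hosts of 26 (42.3%), with Snx29 at 5 regions and the lysosomal regulators Mitf and Tfeb at 3 each. The RANKL and NFATc1 axis had 10 of 27 (37.0%) with 22 regions: 5 in Mef2c, 3 each in Mitf, Tfeb and the calcium channel gene Itpr2, 2 each in Itpr3 and Nfatc1, and 1 each in Itpr1, Nfkb1, Ppp3ca (a calcineurin subunit) and Spi1. The MYC network and cell cycle had 6 of 18 (33.3%), with Cdk6 at 4 regions. Osteoclast function genes had 6 of 24 (25%), with Snx10 at 3, Cd9 and Plekhm1 at 2, and the proton pump genes Atp6v0d2 and Atp6v1a and the integrin gene Itgav at 1. In this order the lists had median spans of 40.7, 68.8, 44.9 and 32.5 kb. Over all genes the host share was 6.26% at 20 to 50 kb of span and 13.6% at 50 to 100 kb.

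NF-kB and innate signalling genes had 7 hosts of 28 (25%), with Irak2 at 3 regions. BET and elongation genes had 7 of 29 (24.1%), with Aff1, a scaffold of the super elongation complex, at 4, the deacetylase gene Hdac9 at 3, and Brd3, itself a target of I-BET, at 1. Interferon response genes had 4 of 19 (21.1%), with Irf2 at 3. The 2 lists of other cell types were under or near the share of all genes: 1 of 14 lymphocyte genes (7.14%, Lck) and 1 of 17 fibroblast and osteoblast genes (5.88%, Runx2). Median spans were 31.5 kb for NF-kB and innate signalling, 65.9 kb for BET and elongation and 27.3 kb for interferon response. They were 50.6 kb for lymphocyte and 41.8 kb for fibroblast and osteoblast genes. The share of 8.58% is not adjusted for span. The lists were written with earlier results of these data known, and no list was tested.

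**Figure D3:**
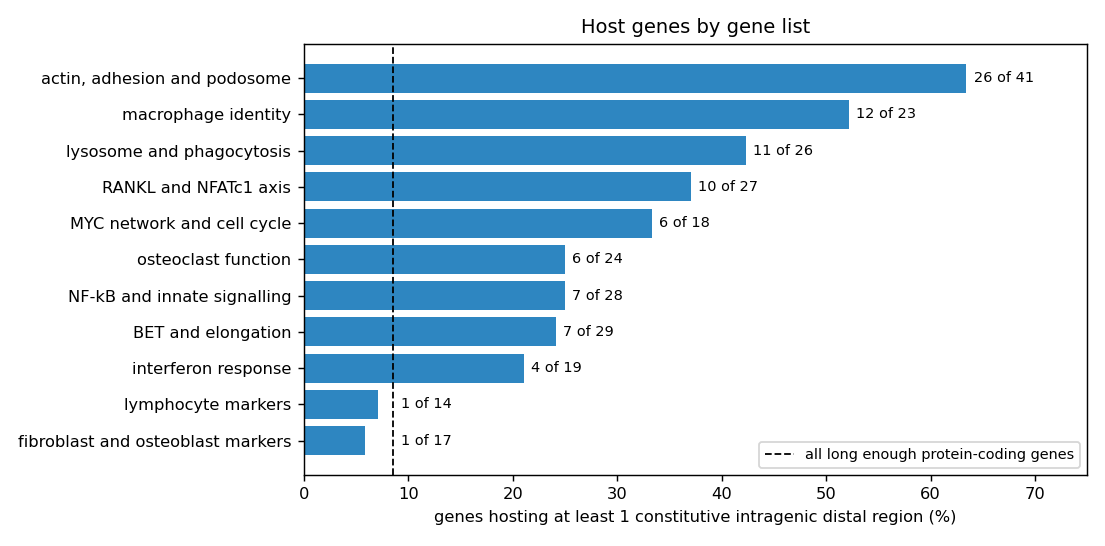
Share of genes that hold at least 1 constitutive intragenic distal region (x axis, %) for 11 gene lists (y axis), among genes long enough to hold one, with the number of hosts beside each bar and the share over all long enough protein-coding genes (8.58%) as a dashed line. The lists of lymphocyte and of fibroblast and osteoblast genes, at 7.14% and 5.88%, are the 2 left of that line, which is not adjusted for gene span.

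The constitutive intragenic regions were broad. Their median width was 2078 bp (lowest 376, highest 19259, quartiles 1500 and 3101), and their summed width 4.86 Mb of 20.7 Mb in all constitutive regions. The median was 1964.5 bp for 1244 constitutive regions outside genes and over 5 kb from gene ends, 1717.5 bp for 5100 constitutive regions within 1 kb of a gene end, and 669 bp for 3124 intragenic distal regions held by 2 to 6 lists. The rule bears on the last difference, since a wide region is more easily overlapped by all 7 lists.

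The widest was in Aopep (chr13:63239460-63258718, 19259 bp), which encodes an aminopeptidase. Its covered width was 11984 and 15064 bp in untreated cells, 18209 and 16371 bp after RANKL, 18415 and 16234 bp after RANKL plus I-BET, and 14218 bp after I-BET alone. All 4 lists with RANKL lay above the 3 without it. Whole lists had the same split, with 20.6 to 25.9 Mb covered against 16.1 to 19.6 Mb. The next was in Lrp1 (chr10:127587026-127606080, 19055 bp), the gene of a large endocytic receptor, covered over 10220 and 16254 bp in untreated cells, 14333 and 16399 bp after RANKL, 16697 and 18589 bp after RANKL plus I-BET, and 17429 bp after I-BET alone. Here the lists with I-BET were the 3 highest.

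The region in Lcp1 (chr14:75174725-75193140, 18416 bp), the gene of the actin bundler L-plastin, was covered over 9172 and 12798 bp in untreated cells, 12313 and 14414 bp after RANKL, 16631 and 15635 bp after RANKL plus I-BET, and 18292 bp after I-BET alone. Again the 3 lists with I-BET lay above the 4 without it. The other 7 of the 10 widest were in Plec, Nrp2, Ahnak, Cadm1, Rgl1, Fmn1 and Galnt7, from 13773 bp down to 11660 bp. Plec (chr15:76194431-76208203), the gene of the cytolinker plectin, was the most even of these 10, with 12311 to 13300 bp covered in each of the 7 lists.

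Covered width is the number of base pairs of a region that the peaks of a list cover. Summed over the 1885 regions, untreated cells had 2.90 and 3.65 Mb covered, against 3.84 and 4.19 Mb after RANKL, 3.77 and 3.85 Mb after RANKL plus I-BET, and 3.77 Mb after I-BET alone. Untreated lists lay under the others, with replicate 1 the lowest. The median share of a region's width that was covered was 59.0% and 76.8% in untreated cells, 82.4% and 90.5% after RANKL, 82.6% and 80.8% after RANKL plus I-BET, and 79.0% after I-BET alone. In untreated replicate 1, 78.3% of the regions were covered by a single peak, against 90.7% to 97.5% in the other 6 lists, so the low width of that list came with more broken coverage. Whole lists differed the same way, with 16.1 and 19.5 Mb covered in untreated cells, 23.7 and 25.9 Mb after RANKL, 23.0 and 20.6 Mb after RANKL plus I-BET, and 19.6 Mb after I-BET alone. Widths given for single genes and regions, before and after this, are not scaled for the length of a list. What part that length plays in their order was not tested.

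The mean of the summed covered width was 4.01 ± 0.245 Mb with RANKL (SD, n = 2) and 3.27 ± 0.529 Mb in untreated cells (SD, n = 2), a difference of 0.741 Mb (two-sided exact permutation test, p = 0.333). With RANKL and I-BET it was 3.81 ± 0.0529 Mb (SD, n = 2), which differed from RANKL by -0.206 Mb (same exact test, p = 0.667) and from untreated cells by 0.535 Mb (exact p = 0.333). With 2 lists against 2 the smallest p that this exact test can give is 0.333.

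For single regions, log2 of the covered width plus 100 bp was fitted with limma over 15141 consensus regions with a mean of at least 200 bp, all 1885 constitutive intragenic regions among them. At an adjusted p under 0.05 no region was called in any of the 4 comparisons (0 of 15141, or 0%, in each direction). The smallest adjusted p of limma (Benjamini-Hochberg) was 0.439 for RANKL against untreated, 1 for RANKL with I-BET against RANKL, 0.476 for RANKL with I-BET against untreated and 0.0926 for I-BET against untreated. At an unadjusted p under 0.05 stood 147 (7.80%), 45 (2.39%), 121 (6.42%) and 94 (4.99%) of the constitutive intragenic regions, beside 7.62%, 2.34%, 6.39% and 6.89% of all regions. The outcome depends on 1 list and on filters. Leaving out 1 untreated list moved the median log2 difference over the constitutive intragenic regions. Without untreated replicate 3 it was 0.41 for RANKL, 0.32 for RANKL with I-BET and 0.33 for I-BET, each against untreated. Without untreated replicate 1 it was 0.10, 0.035 and 0.032 in the same order. The lone untreated list was then assumed to vary like the other groups, and no calls are counted from these fits. With all 7 lists and no filter on width, limma tested 18659 regions. It called 261 and 298 of them for the first 2 comparisons (1 and 0 of the 1885 constitutive intragenic ones). With peaks of a -log10 q of at least 5 it tested 6956 regions, 1174 of them constitutive intragenic. It then called 543, 666 and 217 for the first 3 comparisons (85, 100 and 34 of the constitutive intragenic ones). In each, the called share of the constitutive intragenic regions was a little under that of all regions tested. Of all calls 530 were higher and 13 lower in the first, 202 and 464 in the second, and 206 and 11 in the third.

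**Figure D4:**
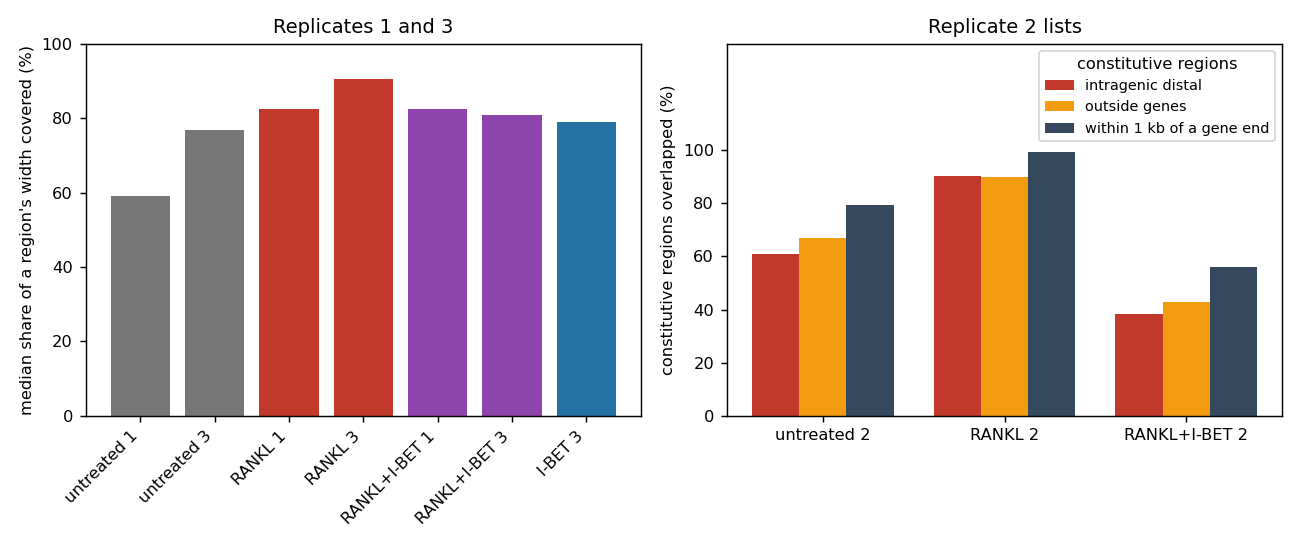
Left, median share of a constitutive intragenic distal region's width that was covered (y axis, %) in each of the 7 lists of replicates 1 and 3 (bars, coloured by treatment), lowest at 59.0% in untreated replicate 1. Right, share of constitutive regions (y axis, %) that each replicate 2 list overlapped, for regions inside genes, outside genes and within 1 kb of a gene end, which is highest near gene ends in all 3 lists.

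The median log2 difference over the constitutive intragenic regions was 0.29 for RANKL against untreated, beside 0.49 over all regions tested and 0.32 over all constitutive regions. It turned to -0.05 when each list was centred on its median over constitutive regions, and it was 0.10 without untreated replicate 1. For RANKL with I-BET against RANKL it was -0.06, beside -0.08 over all regions, and turned to 0.015 when centred. For RANKL with I-BET against untreated it was 0.22 (all regions 0.35, centred -0.04, without untreated replicate 1 0.035), and for I-BET against untreated 0.22 (all regions 0.20, centred 0.06, without untreated replicate 1 0.032, and 0.14 with the replicate number as a block). The SD between the 2 lists of a group, of the median over these regions, was 0.13.

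In 641 regions (34.0%) both RANKL lists covered more than both untreated lists, and in 59 (3.13%) less, where over all regions tested the shares were 38.1% and 2.34%. After centring, the numbers were 251 higher and 373 lower, against 19.4% and 14.5% of all regions, so the split by direction depends on the scaling. RANKL with I-BET lay above RANKL in 206 regions and below it in 417, beside 9.53% and 21.7% of all regions. After centring these were 344 and 285 (16.7% and 15.3% of all). RANKL with I-BET lay above untreated in 511 and below in 106, beside 28.7% and 4.22% of all, and centred in 237 and 358 (16.1% and 14.5% of all). The single I-BET list lay above both untreated lists in 793 regions and below both in 352, beside 34.7% and 18.5% of all, and centred in 592 and 500 (27.8% and 29.0% of all). These comparisons share the untreated or RANKL lists.

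Over the 22 regions in genes of the RANKL and NFATc1 axis, the median log2 difference was 0.17 for RANKL against untreated, with 8 regions (36.4%) where both RANKL lists were higher and 0 where both were lower, beside 38.1% and 2.34% of all regions tested. With RANKL and I-BET against RANKL the median was -0.05, with 2 higher (9.09%) and 5 lower (22.7%), beside 9.53% and 21.7% of all regions. These shares are near those of all regions. Mef2c (chr13:83504017-83667079), whose factor cooperates in macrophage and osteoclast gene control, had 22.6 kb in its 5 regions, covered over 14.5 and 17.0 kb in untreated cells, 20.8 and 16.7 kb after RANKL, 21.4 and 18.1 kb after RANKL plus I-BET, and 21.7 kb after I-BET alone. RANKL overlapped untreated, and the 3 lists with I-BET lay above both untreated lists. Its widest region (chr13:83523017-83532708, 9692 bp) was covered over 5025 and 6372 bp in untreated cells, 8814 and 6581 bp after RANKL, 9404 and 9436 bp after RANKL plus I-BET, and 9429 bp after I-BET alone. Both untreated values lay under all others, and the limma adjusted p was 0.632 for RANKL against untreated (log2 difference 0.42).

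Mitf, which encodes a factor of osteoclast genes and lysosomes, had 3 regions with 17.98 kb in all, centred 11.3 to 49.03 kb from its 5′ end and covered over 13.7 and 17.1 kb in untreated cells, 15.2 and 16.1 kb after RANKL, 15.5 and 17.0 kb after RANKL plus I-BET, and 17.2 kb after I-BET alone. Tfeb, which encodes the master factor of lysosomal genes, had 7.73 and 9.43 kb, 9.84 and 10.8 kb, 8.27 and 10.2 kb, and 8.07 kb covered in the same order. In Mitf the 3 groups of 2 lists overlapped, and in Tfeb both RANKL lists lay above the untreated ones. Itpr2, the gene of a calcium channel of the endoplasmic reticulum, had 5.24 and 5.28 kb covered in untreated cells, 7.72 and 7.65 kb after RANKL, 6.34 and 5.15 kb after RANKL plus I-BET, and 5.29 kb after I-BET alone. Its RANKL lists lay above all 5 others, as they did in the covered length of whole lists.

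Over the 23 regions in macrophage identity genes the median log2 difference was 0.23 for RANKL against untreated, 0.21 for RANKL with I-BET against RANKL and 0.41 for I-BET against untreated. In 18 of the 23 (78.3%) the single I-BET list lay above both untreated lists, and in 2 (8.70%) below both. Beside this stood 34.7% and 18.5% of all regions, and 42.1% and 18.7% of the constitutive intragenic ones. The lists were not centred for these counts, and Runx1 alone held 6 of the 23 regions. None of these regions passed the limma test, and this list was singled out after its values were seen. Runx1 (chr16:92601466-92826074) had 7.80 and 14.9 kb of its 18 kb covered in untreated cells, 14.5 and 13.6 kb after RANKL, 16.4 and 16.2 kb after RANKL plus I-BET, and 17.2 kb after I-BET alone. The 3 lists with I-BET were the highest. One of its regions (chr16:92714999-92716920, 1922 bp) went from 203 and 670 bp in untreated cells to 1092 and 1259 bp after RANKL, 1922 and 1280 bp after RANKL plus I-BET, and 1902 bp after I-BET alone, with limma adjusted p of 0.632 for RANKL and 0.561 for I-BET against untreated.

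Etv6, whose factor represses transcription in blood cells, had 2.58 and 3.18 kb covered in untreated cells, 4.79 and 5.82 kb after RANKL, 5.71 and 5.38 kb after RANKL plus I-BET, and 4.17 kb after I-BET alone. Both untreated lists were the lowest. Elf1 had 4.83 and 4.93 kb in untreated cells, 2.83 and 5.27 kb after RANKL, 4.27 and 3.94 kb after RANKL plus I-BET, and 3.63 kb after I-BET alone, so that the lists with I-BET lay under the untreated ones. Fli1 had 7.76 and 6.61 kb, 8.58 and 8.71 kb, 11.1 and 7.37 kb, and 9.81 kb in the same order, with both RANKL lists above the untreated ones.

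The 62 regions in actin, adhesion and podosome genes had a median log2 difference of 0.32 for RANKL against untreated (23 higher and 1 lower without overlap, or 37.1% and 1.61%, beside 38.1% and 2.34% of all regions) and -0.02 for RANKL with I-BET against RANKL (14 higher and 8 lower, or 22.6% and 12.9%, beside 9.53% and 21.7% of all regions). Ptk2b had 8.11 and 10.1 kb covered in untreated cells, 10.6 and 12.47 kb after RANKL, 10.7 and 13.3 kb after RANKL plus I-BET, and 12.4 kb after I-BET alone. Both untreated lists were the lowest, as in Dock10, which encodes an exchange factor for small GTPases: 9.33 and 9.52 kb in untreated cells, 12.8 and 13.2 kb after RANKL, 12.3 and 13.8 kb after RANKL plus I-BET, and 12.502 kb after I-BET alone. Myo1e, the gene of a class I myosin, had 4.66 and 8.76 kb, 10.3 and 10.4 kb, 8.65 and 7.47 kb, and 10.01 kb in the same order, with RANKL above all the rest. By covered length of whole lists, too, RANKL lay above all the rest.

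The other lists had medians for RANKL against untreated of 0.58 (NF-kB and innate signalling, 9 regions), 0.47 (interferon response, 6), 0.38 (BET and elongation, 13), 0.31 (MYC network and cell cycle, 10), 0.27 (osteoclast function, 10) and 0.20 (lysosome and phagocytosis, 21). For RANKL with I-BET against RANKL their medians ran from -0.16 (BET and elongation) to 0.04 (NF-kB and innate signalling). Irak2, which encodes a kinase of Toll-like receptor signalling, had 9.54 and 5.44 kb covered in untreated cells, 13.3 and 12.8 kb after RANKL, 10.9 and 11 kb after RANKL plus I-BET, and 11.97 kb after I-BET alone. The order RANKL, then both I-BET treatments, then untreated held with no overlap. Whole lists stood in the same order by covered length. Cdk6, the gene of a kinase of early cell cycle, had 8.48 and 13.5 kb in untreated cells, 14.1 and 16 kb after RANKL, 9.73 and 12.8 kb after RANKL plus I-BET, and 12.6 kb after I-BET alone, and RANKL was again the highest, as in whole lists.

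The regions with the largest width differences were picked after their values were seen, and none passed the limma test. A region in Akap13 (chr7:75666674-75669868, 3195 bp), the gene of an anchor for protein kinase A, was covered over 359 and 477 bp in untreated cells, 2023 and 2866 bp after RANKL, 2037 and 2807 bp after RANKL plus I-BET, and 1597 bp after I-BET alone. RANKL against untreated gave a log2 difference of 2.29 (SE 0.298, limma adjusted p = 0.439). A region in Usp6nl (chr2:6378274-6380965, 2692 bp), the gene of a GTPase-activating protein of endocytosis, had 520 and 426 bp, 2565 and 2692 bp, 2256 and 2421 bp, and 2332 bp in the same order, a log2 difference of 2.26 (SE 0.193, limma adjusted p = 0.439). In both, all 5 treated lists of the 7 lay far above the untreated ones. The replicate 2 lists of untreated, RANKL, and RANKL with I-BET covered 76, 403 and 0 bp in Akap13. In Usp6nl they covered 279, 815 and 0 bp.

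The opposite pattern stood in Rtn4 (chr11:29703389-29708687, 5299 bp), the gene of a protein that shapes the endoplasmic reticulum. It was covered over 5135 and 5299 bp in untreated cells, 2535 and 1551 bp after RANKL, 4307 and 4417 bp after RANKL plus I-BET, and 5119 bp after I-BET alone. Among the lists that chose the regions, those of RANKL were the lowest (log2 difference -1.35, SE 0.239, limma adjusted p = 0.439). In Sirpa (chr2:129599895-129603938, 4044 bp), the gene of the macrophage receptor for the signal CD47, the widths were 1542 and 1920 bp, 491 and 969 bp, 3172 and 3541 bp, and 3843 bp in the same order. Among the same lists, RANKL was the lowest there too. The lists with I-BET were the highest (RANKL with I-BET against RANKL, log2 difference 2.12, SE 0.328, limma adjusted p = 1). The replicate 2 lists of untreated, RANKL, and RANKL with I-BET covered 248, 4044 and 626 bp in Sirpa. There RANKL was the highest, unlike in the lists that chose the regions. In Rtn4 the replicate 2 lists covered 0 bp each.

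A region in Bicra (chr7:16001725-16003544, 1820 bp), the gene of a SWI/SNF subunit, had 818 and 1747 bp in untreated cells, 1644 and 1820 bp after RANKL, 152 and 524 bp after RANKL plus I-BET, and 809 bp after I-BET alone. Both values after RANKL plus I-BET lay under all the others of the 7 lists, with a log2 difference from RANKL of -2.21 (SE 0.599, limma adjusted p = 1). The replicate 2 lists of untreated, RANKL, and RANKL with I-BET covered 0, 1820 and 0 bp.

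Column 7 of the deposited lists is the authors' fold enrichment of a peak over its local background, and is used here to describe and rank within a list only. For each region the highest value of its peaks was taken. The median over the constitutive intragenic regions was 2.70 and 2.42 in untreated cells, 3.19 and 2.60 after RANKL, 3.57 and 2.56 after RANKL plus I-BET, and 2.57 after I-BET alone. The medians of the whole lists were 2.62, 2.41, 3.11, 2.54, 3.47, 2.50 and 2.55 in the same order. Replicate 1 was above replicate 3 in each group, for these regions and for the whole list alike. Within its list the median region stood at percentile 50.5 to 55.8, so these regions were near the middle of each list. Constitutive regions outside genes stood at 49.4 to 56.3 and those near gene ends at 50.7 to 53.3.

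The fold of a region said little about its fold in another list. Over the 1885 regions, Spearman's rho between 2 lists was 0.0297 to 0.134 for the 21 pairs of lists, and 0.0705 to 0.0962 for the 3 pairs of the same group. The rho of the deposited -log10 p was 0.0310 to 0.161. For covered width it was 0.627 to 0.851, where the points share the consensus bounds that limit the width. At or above the 90th percentile of a list stood 587 regions in 1 list, 227 in 2, 56 in 3, 8 in 4, 2 in 5 and 0 in 6 or 7, while 1005 were there in 0 lists. Over all 8993 constitutive regions the rho of column 7 was as low, 0.0424 to 0.119. What sets this low agreement was not tested. Whether the fold, p and q of each row belong to the peak of that row cannot be told from the files, and this limits the medians and ranks of column 7 and every filter on p or q given here.

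**Figure D5:**
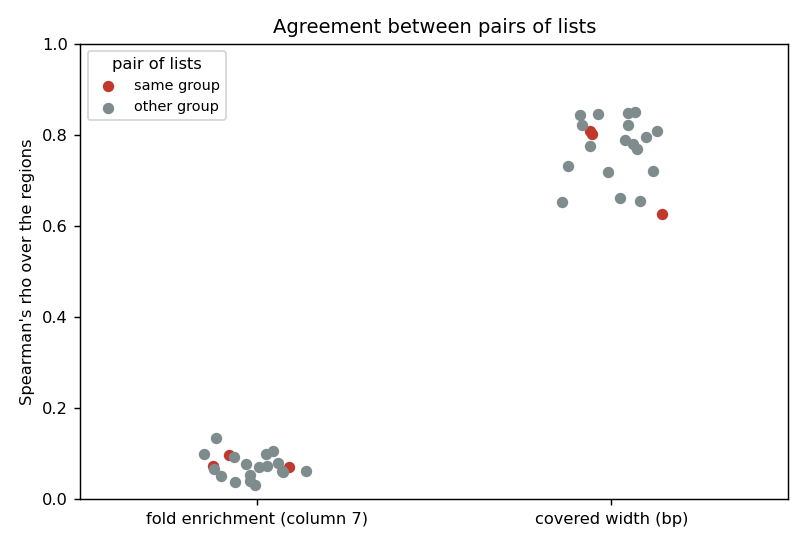
Spearman's rho over the 1885 regions (y axis) between each of 21 pairs of lists, for the authors' fold enrichment and for covered width (x axis), with pairs of the same treatment group in red and other pairs in grey. All pairs lie at 0.134 or less for fold enrichment and at 0.627 or more for covered width.

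Ranked by the lowest of its 7 percentiles, the region in Ahnak (chr19:9050861-9063718, 12858 bp) came first, at percentile 78.1 or above in every list. Ahnak encodes a giant scaffold protein under the cell membrane. Its column 7 values were 3.27 and 3.75 in untreated cells, 5.54 and 3.92 after RANKL, 4.58 and 3.12 after RANKL plus I-BET, and 3.62 after I-BET alone. The other 9 of the first 10 were in Colec12 (a scavenger receptor gene), Pias1, Pik3ap1, Naa60, Snx29, Myof, Magi2, Nfatc2 and Tns3, with lowest percentiles from 76.3 down to 63.0. Pik3ap1, which encodes an adaptor of PI3 kinase in myeloid cells, had a region (chr19:41344299-41346783, 2485 bp) with values of 3.87 and 3.04, 3.77 and 4.32, 4.34 and 3.12, and 3.77 in the same order, and all 3 replicate 2 lists overlapped it. The region of Pias1 (chr9:62932176-62933868, 1693 bp) had values of 2.97 to 5.81, and none of the replicate 2 lists overlapped it. Over the 1885 regions, Spearman's rho between the width and this lowest percentile was 0.418, as a description, and the highest of several peaks was taken where a region had more than 1.

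The 3 replicate 2 lists had not been used to choose the regions. Untreated replicate 2 overlapped 1149 of the 1885 (61.0%), RANKL replicate 2 1704 (90.4%) and RANKL with I-BET replicate 2 725 (38.5%). The shares for constitutive regions outside genes were 67.0%, 90.03% and 43.0%, for those within 1 kb of a gene end 79.5%, 99.5% and 55.9%, and for intragenic distal regions held by 2 to 6 lists 11.7%, 69.3% and 5.54%. With the RANKL list that stands apart among them, all 3 lists overlapped 584 of the constitutive intragenic regions (31%), against 37.5% outside genes and 50.9% near gene ends, and 107 were in none of them. Without the RANKL list, a choice made after seeing the data, both others overlapped 605 (32.1%), against 38.6% outside genes and 51.02% near gene ends, and 616 were in neither. Regions are not replicates, and these shares carry no test.

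Width went with this overlap. Of the 472 narrowest regions (up to 1500 bp) the untreated list overlapped 42.6%, RANKL 87.9% and RANKL with I-BET 23.5%. Of the 470 widest (from 3102 bp) the shares were 81.1%, 94.7% and 58.9%. Regions with an internal start of the host were overlapped more often than those without, in 74.4% against 59.0% for untreated, 96.7% against 89.5% for RANKL and 52.1% against 36.2% for RANKL with I-BET replicate 2. Their median widths were 2219 and 2065.5 bp, and those without include regions of hosts whose starts were not known. When 50% of a region had to be covered, the 3 lists held 328, 1351 and 70 of the 1885 regions.

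The RANKL replicate 2 list, although it covered 184.6 Mb, passed over most of the width in some hosts, which were picked after their values were seen. In Dock10 it overlapped 1 of 5 regions and covered 0.249 kb, against 12.8 and 13.2 kb in the other RANKL lists. In Mef2c it covered 3.49 kb, against 20.8 and 16.7 kb, and in Hdac9 0 kb, against 2.98 and 3.79 kb. In Elf1 it covered 0.423 kb, against 2.83 and 5.27 kb. In Runx1 it covered 16.8 kb, above the 14.5 and 13.6 kb of the other RANKL lists, and in Tfeb 11.7 kb, the full width of the 3 regions. The same list had a peak at the ends of 14 of 14 lymphocyte genes, as given above.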

How the data were processed

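H3K27ac peak lists of 10 libraries were used, while 10 input samples were not analysed here. FastQC, Bowtie2 and MACS2 were used, per the submitters' processing notes, with the build mm10 (GRCm38); versions, peak settings and the control of each list are not given in the sources used here. Lists have the broad-peak layout. The deposited score equals the -log10 q times 10, the deposited fold enrichment is a ratio on a linear scale, and the deposited p and q values are on a -log10 scale. Within each list these values served for description, ranking and filters.

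Genes, strands and start windows came from RefSeq tables (GRCm38.p6); exons and introns were not used here. Strand and internal starts come from the start windows, which matched 80.4% of hosts. Starts on chromosome 18 were left out. Coverage of 1 bp sufficed for a list to hold a region. limma 3.58.1 (R 4.3.3, trended prior) fitted 4 groups without a block on log2(covered bp + 100), with Benjamini-Hochberg adjustment, and the lone I-BET list was assumed to vary like the other groups. The code was tested on simulated lists and values. The regions, gene lists and tests were chosen with earlier results of these data known. Named were the 10 hosts with most regions, the 10 strongest by the lowest percentile of column 7, the 10 widest, regions past the limma threshold, up to 4 hosts per list, and the 3 regions on each side of the 5 kb limit, while other examples were chosen after their values were seen. Alternatives covered the distance, consensus, coverage, q and length filters, pseudocount, centring, block, all 10 lists and each list left out. A gene that this rule names is not reported here.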

Additional observations from a re-analysis of the deposited data

How the results depend on the processing

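The number of regions and of hosts changed most with how a region is held. With 50% of a region covered in every list there were 745 regions in 584 hosts, with overlap by all 10 lists 584 in 460, with every list reduced to one covered length by its -log10 p 369 in 297, and with peaks of a -log10 q of at least 5 there were 0 in 0. With that q the replicate 2 lists held 31 (untreated), 642 (RANKL) and 87 (RANKL with I-BET) of the 1885 regions, and with 50% covered 328, 1351 and 70. Distances of 2 or 10 kb gave 2194 and 1462 regions, and other consensus rules 1833 to 1915. Leaving out a list gave 1905 to 2142 regions and 1187 to 1337 hosts. Chosen after seeing the data, 5 kb also from non-coding genes and pseudogenes gave 1558 regions, and leaving out those with an internal start 1670.

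Calls by limma, counted without the fits that left out a list, were 0 except as follows. Without a filter on width, 18659 regions were tested. There were 261 calls for RANKL against untreated and 298 for RANKL with I-BET against RANKL, of which 1 and 0 were constitutive intragenic regions. With a -log10 q of at least 5, 6956 regions were tested, 1174 of them constitutive intragenic. There were 543, 666, and 217 for RANKL with I-BET against untreated (85, 100 and 34 of them constitutive intragenic regions). In each, the called share of the constitutive intragenic regions was a little under that of all regions tested. I-BET against untreated had 2 with a pseudocount of 10 bp and 1 at one covered length. Leaving out a list gave 0 to 2909 calls for RANKL against untreated, 0 to 2505 for RANKL with I-BET against untreated and 0 to 1655 for I-BET against untreated, the highest of each without untreated replicate 3. The cause was not tested.

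The median log2 difference for RANKL against untreated was -0.053 centred, -0.33 at one covered length, 1.90 with the q filter, 0.77 with all 10 lists and 0.10 to 0.41 with a list left out. For RANKL with I-BET against RANKL it was 0.015 centred, 0.032 at one covered length and -0.97 with all 10 lists. For RANKL with I-BET against untreated it was -0.042 centred, 0.013 at one covered length, -0.081 with all 10 lists and 0.035 to 0.32 with a list left out. For I-BET against untreated it was 0.057 centred, 0 with the q filter, 0.79 with all 10 lists and 0.032 to 0.33 with a list left out. The lowest of each range was without untreated replicate 1. The replicate block gave 0 calls in all 4 comparisons, and moved the median for I-BET against untreated from 0.22 to 0.14. I-BET shares only number 3 with the untreated lists and the other comparisons share 2 numbers, which does not establish pairs, and same-numbered lists of the 3 groups of 2 deviated together with correlations of 0.222, 0.261 and 0.324 over these regions.

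Depth is unknown, so narrow coverage and low depth cannot be told apart.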

Other observations

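Outside chromosome 18, 69 of 1833 constitutive intragenic distal regions (3.76%) spanned the start of a long non-coding RNA gene of the RefSeq annotation, against 36 of 3039 (1.18%) of the intragenic distal regions held by 2 to 6 lists. The constitutive regions were wider (medians of 2078 and 669 bp, chromosome 18 included), and whether width alone sets this difference was not tested. Hosts of constitutive regions with such a start included Nfkb1, Itpr2, Cd9 and Baz2b, which were picked after the list was seen. A miRNA hairpin lay in 4 regions: Mir6904 in Parp1 (chr1:180587232-180588596), Mir7687 in Gse1 (chr8:120536282-120540716), Mir199a-1 in Dnm2 (chr9:21495247-21497864) and Mir6541 in Wdfy2 (chr14:62863914-62866812). Of these hosts, Parp1 encodes a DNA repair enzyme and Dnm2 the endocytic GTPase dynamin.

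Over the autosomes and the X chromosome, constitutive intragenic distal regions made up from 14.0% of the constitutive regions on the X chromosome (12 of 86) to 29.4% on chromosome 14 (91 of 309), and the 1 constitutive region on the Y chromosome was not among them.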
